A study of Mus musculus with 20 samples.

Results

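The genes described here encode 47 enzymes of amino acid and one-carbon catabolism, given as a list of gene symbols. All 47 were found among the 55487 gene rows of the count table, and all 47 passed the filter on low counts that left 16312 genes for testing. They were grouped by the amino acid they act on: transamination (4 genes), serine and threonine (2), glycine and glyoxylate (5), histidine (4), tryptophan (4), tyrosine (4), lysine (2), ornithine and proline (4), the methionine cycle and methyl groups (6), transsulfuration and cysteine (3), and branched-chain amino acids (9). The liver takes apart most amino acids of the diet and, during fasting, those released from muscle. Aminotransferases move the amino group to keto acids, the nitrogen leaves as urea, and the carbon skeletons feed glucose synthesis, ketone bodies or the citric acid cycle. One-carbon units from serine, glycine, histidine, choline and methionine pass through folate and S-adenosylmethionine, the methyl donor of the cell.

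Liver RNA of female C57BL/6N mice aged 15 weeks was sequenced as strand-specific mRNA libraries, to learn how loss of PLIN2 alters the liver in fasting. PLIN2 is the perilipin that coats most lipid droplets of hepatocytes. The 4 groups of 5 libraries were Plin2-/- mice (here Plin2-null) fasted for 24 h, Plin2-null mice fed chow, Plin2+/+ mice fasted for 24 h and Plin2+/+ mice fed chow. For both Plin2-null groups the sample labels give only the feeding state, and the genotype was taken as Plin2-null because the protocol names only these 2 genotypes. The sources used here do not say how the allele was made or whether the Plin2+/+ mice were littermates.

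Libraries held 25506471 to 65579038 counts. Plin2 itself lay between 75.1 and 130.4 CPM in Plin2-null fasted, 15.3 and 32.1 in Plin2-null fed, 1092 and 1696 in Plin2+/+ fasted and 196 and 319 CPM in Plin2+/+ fed livers. CPM, counts scaled to a common library total, were adjusted by edgeR's trimmed mean of M-values (TMM). Hepatocyte markers summed to at least 81638 CPM in every library. The labels do not say that the 5 libraries of a group came from separate animals, and the p-values therefore speak for the spread among these libraries only, which may be technical. In whole liver, fewer cells of a type and less RNA per cell cannot be told apart.

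The genes together took 2.76% to 5.31% of all counts in fasted libraries and 1.97% to 2.85% in fed libraries, and Plin2+/+ fasted replicate 3 was the highest. Levels between genes are compared in TPM, the deposited transcript abundances scaled by gene length. The 47 genes summed to 25700 ± 3930 TPM in Plin2-null fasted, 19332 ± 1549 TPM in Plin2-null fed, 31033 ± 7999 TPM in Plin2+/+ fasted and 19576 ± 3299 TPM in Plin2+/+ fed livers (SD, n = 5). Mat1a, the liver enzyme that makes S-adenosylmethionine, held 22.1% of the summed TPM over the 20 libraries. It was at 6512 ± 1170.5 TPM in Plin2-null fasted, 2818 ± 572 TPM in Plin2-null fed, 8859 ± 2952 TPM in Plin2+/+ fasted and 2973 ± 656 TPM in Plin2+/+ fed livers (SD, n = 5). After it in mean TPM came Hpd and Tat of tyrosine breakdown, Cdo1, the cysteine dioxygenase, and Bhmt, the betaine-dependent methyltransferase. Mccc1, Sdsl and Bcat2 were lowest. Tat varied most between libraries of 1 group, with a median coefficient of variation in CPM of 48.0% over the 4 groups, followed by Got1 (40.9%) and Sds (40.6%).

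**Figure D1:**
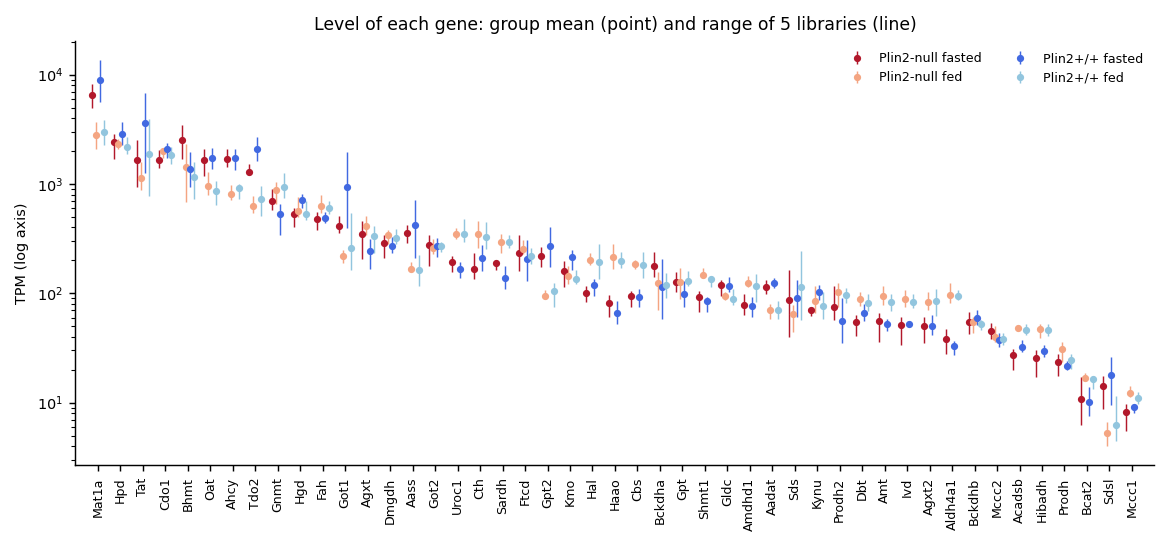
TPM of the 47 genes on a log axis, ordered by mean over 20 libraries, with points for the group means and lines from the lowest to the highest of 5 libraries. Mat1a stands highest and Mccc1 lowest, and the fasted and fed points of Mat1a, Ahcy, Tdo2, Gpt2 and Aldh4a1 are set apart in both genotypes.

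In fasted compared with fed livers, as many of these genes rose as fell, in each genotype. edgeR's quasi-likelihood test with Benjamini-Hochberg adjustment over all genes called 16 of 47 higher and 16 lower in Plin2-null fasted livers, which is 68.1% of the genes where 36.1% of all genes tested were called. In Plin2+/+ livers it again called 16 higher and 16 lower, 68.1% where the background was 42.6%. By direction, 34.0% were called each way in each genotype, against a background of 18% higher and 18.1% lower in Plin2-null and 20.9% higher and 21.7% lower in Plin2+/+ livers. At an unadjusted p under 0.05 there were 17 higher and 17 lower in Plin2-null (background 22.6% and 22.8%, 45.4% in all) and 17 higher and 16 lower in Plin2+/+ livers (background 24.8% and 25.2%, 50% in all). The median log2 fold change of the 47 genes was 0.04 in Plin2-null and -0.07 in Plin2+/+ livers, beside -0.006 in Plin2-null and -0.007 in Plin2+/+ livers for all genes. With library size alone the median of the 47 was -0.184 in Plin2-null and -0.248 in Plin2+/+ livers, and that of all genes -0.214 in Plin2-null and -0.162 in Plin2+/+ livers. In Plin2-null livers that scaling gave 11 of the 47 higher and 18 lower, where 8.44% of all genes were called higher and 26.0% lower. On log2(TPM + 1), limma gave 11 higher and 19 lower there, where 6.41% of all genes were called higher and 28.6% lower. Genes with low counts are part of the background. With a stricter filter on low counts, 41.1% of 12782 genes were called in Plin2-null and 47.5% in Plin2+/+ livers. That filter gave 15 of the 47 higher and 16 lower in Plin2-null, and 16 higher and 16 lower in Plin2+/+ livers.

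Of the called genes, 12 rose in both genotypes: Gpt2, Got1, Sdsl, Gldc, Tdo2, Kmo, Aass, Aadat, Oat, Mat1a, Ahcy and Bckdhb. Another 13 fell in both: Amt, Shmt1, Agxt2, Hal, Uroc1, Amdhd1, Haao, Aldh4a1, Cbs, Bcat2, Ivd, Acadsb and Hibadh. No gene was called in opposite directions. These are 25.5% of the 47 higher and 27.7% lower in both, beside 12.6% higher and 13.2% lower in both among all 16312 genes tested, of which 0.0613% were called in opposite directions. The 2 fasting comparisons share no library. Got2, Bhmt, Bckdha and Mccc2 were called higher and Cth, Dbt and Mccc1 lower in Plin2-null livers alone, while Kynu, Tat, Hpd and Hgd were called higher and Prodh2, Gnmt and Sardh lower in Plin2+/+ livers alone. Being called in 1 genotype alone applied to 14.9% of the 47 in Plin2-null and 14.9% in Plin2+/+ livers, beside 10.3% and 16.8% of all genes. The difference between the genotypes in these responses was called for none of the 47 genes. Gpt, Sds, Agxt, Ftcd, Fah, Prodh, Dmgdh and Cdo1 were called in neither, 17.0% of the 47 beside 47.1% of all genes. Other settings moved some of these genes between classes: Cth was also called lower in Plin2+/+ livers with library size alone, on both log2 TPM scales, with the share of Lars2 counts as a covariate and with the GC trend removed (-0.65 to -0.56, adjusted p between 0.0138 and 0.0492). With each library's GC trend removed, Prodh2 was called lower in Plin2-null livers (-0.33, adjusted p = 0.0263), and Dbt was called lower in Plin2+/+ livers (-0.25, adjusted p = 0.0369). With library size alone Mccc1 was called lower in Plin2+/+ livers (-0.29, adjusted p = 0.0473).

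**Figure D2:**
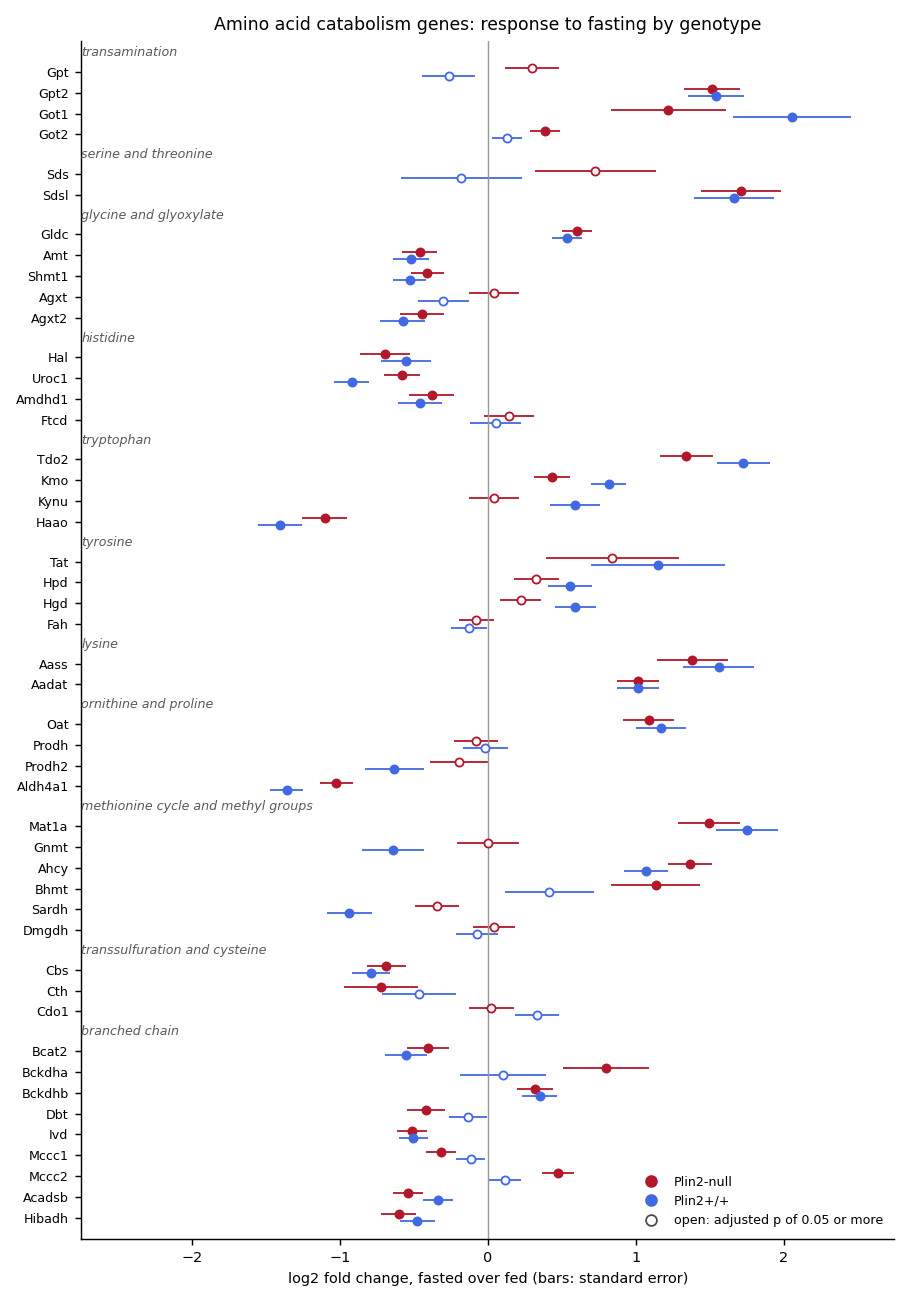
Log2 fold change of fasted over fed livers for each gene, by amino acid group, in Plin2-null (red) and Plin2+/+ (blue) livers, with standard errors and open points where the adjusted p was 0.05 or more. Gpt2, Got1, Sdsl, Tdo2, Aass, Oat and Mat1a lie to the right and Haao and Aldh4a1 to the left in both genotypes.

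Regulatory sequence was looked up for the genes that moved together. The RefSeq table held promoters for 39 of the 47 genes, in 42 windows, and the 250 bases before each RefSeq start were searched on both strands. The genes shown are the 4 with the smallest adjusted p in either fasting comparison whose window reaches no exon of GENCODE vM21; 27 of the 42 windows did reach one. All 4 rose in fasted livers of both genotypes, and capitals mark the motifs found. Sequences are from RefSeq, build GRCm38.p6, written in the gene's direction: Ahcy is at chr2:155074498-155074747 on the minus strand, Gpt2 at chr8:85492326-85492575 on the plus strand, Oat at chr7:132576399-132576648 on the minus strand and Aass at chr6:23132987-23133236 on the minus strand.
Ahcy: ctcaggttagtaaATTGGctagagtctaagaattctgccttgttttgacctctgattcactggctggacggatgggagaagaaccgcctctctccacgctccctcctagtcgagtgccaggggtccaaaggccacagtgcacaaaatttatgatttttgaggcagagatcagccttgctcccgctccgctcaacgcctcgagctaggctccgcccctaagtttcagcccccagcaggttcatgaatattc
Gpt2: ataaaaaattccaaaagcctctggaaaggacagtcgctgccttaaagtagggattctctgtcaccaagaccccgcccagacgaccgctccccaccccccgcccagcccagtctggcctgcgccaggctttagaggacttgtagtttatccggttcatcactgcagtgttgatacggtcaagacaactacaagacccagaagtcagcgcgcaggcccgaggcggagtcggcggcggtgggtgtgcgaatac
Oat: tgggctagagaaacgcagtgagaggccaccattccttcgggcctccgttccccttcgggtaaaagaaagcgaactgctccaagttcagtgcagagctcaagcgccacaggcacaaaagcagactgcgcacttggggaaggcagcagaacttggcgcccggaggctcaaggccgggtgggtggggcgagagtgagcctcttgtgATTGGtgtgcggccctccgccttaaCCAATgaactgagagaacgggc
Aass: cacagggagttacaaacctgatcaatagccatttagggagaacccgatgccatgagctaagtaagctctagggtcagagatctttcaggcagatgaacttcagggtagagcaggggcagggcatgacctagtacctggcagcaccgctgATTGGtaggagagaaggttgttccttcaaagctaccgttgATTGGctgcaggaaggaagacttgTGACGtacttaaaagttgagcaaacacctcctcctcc

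ATTGG or CCAAT, the 2 strands of the CCAAT box, stood in the windows of Ahcy, Oat and Aass, and in 22 of all 42 windows, beside 33.8% of 32851 promoters in the table. The Aass window also held TGACG, the core of the cAMP response element, which 4 windows had (Aass, Acadsb, Ftcd and Shmt1), beside 17.8% of all promoters. The full element TGACGTCA contains those letters and was in none of the 42 windows, beside 1.55% of all promoters. The forkhead motif GTAAACA was in that of Hibadh alone, beside 3.17%. The palindromic glucocorticoid response element and a direct repeat with 1 base between, bound by nuclear receptors, were in none, beside 0.00913% and 0.0335%. TATAAA, the sequence of the TATA box, was in 7 windows of 6 genes (Agxt2, Ftcd, Got2, Hal, Hgd and Tdo2), beside 12.4%. All motif counts take a match at any place in a window and include the 27 windows that reach an exon. An annotated exon covered 250 bases of the Tdo2 window and 146 bases of the Got2 window, so such matches can lie in transcribed sequence. The CCAAT and TATA boxes were added to the search after the sequences had been seen. No searched motif was found in the Gpt2 window.

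Among the aminotransferases, Gpt2, the mitochondrial alanine aminotransferase, rose in fasted livers of both genotypes. Gpt2 was at 465, 446, 684, 522 and 578 CPM in Plin2-null fasted livers, against 184, 172, 194, 210.2 and 184 CPM in Plin2-null fed livers. The Plin2+/+ values were 495, 732, 1043, 442 and 585 CPM in fasted livers, against 238, 203, 273, 258 and 158 CPM in fed livers. Every fasted library lay above every fed library of its genotype. The log2 fold change was 1.51 ± 0.19 in Plin2-null (SE, edgeR adjusted p = 2.72e-06) and 1.54 ± 0.19 in Plin2+/+ livers (adjusted p = 1.55e-06). Gpt, the cytosolic form, was at 125, 138, 205, 163 and 176 CPM in Plin2-null fasted livers, against 132, 171, 133, 90.7 and 129 CPM in Plin2-null fed livers. It was at 79.7, 112, 149, 125 and 143 CPM in Plin2+/+ fasted livers, against 136, 139.7, 197, 129.6 and 128 CPM in Plin2+/+ fed livers. These ranges overlapped in both genotypes, and the log2 fold changes of Gpt were 0.30 ± 0.18 in Plin2-null and -0.26 ± 0.18 in Plin2+/+ livers (adjusted p = 0.197 and 0.243).

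Got1, the cytosolic aspartate aminotransferase of the malate-aspartate shuttle, also rose in both. It was at 536, 451, 595, 405 and 350.3 CPM in Plin2-null fasted livers, against 232, 174, 232, 194 and 171 CPM in Plin2-null fed livers. In Plin2+/+ mice Got1 was at 622, 1151, 2270.0, 452 and 736 CPM in fasted livers, against 146, 169.5, 275, 508 and 158 CPM in fed livers. Plin2+/+ fasted replicate 3 stood highest of all 20 libraries, and Plin2+/+ fed replicate 4 overlapped the fasted range. The log2 fold change was 1.22 ± 0.39 in Plin2-null (adjusted p = 0.0199) and 2.06 ± 0.40 in Plin2+/+ livers (adjusted p = 0.000418). The call in Plin2-null livers ended without Plin2-null fasted replicate 3 (adjusted p = 0.0516), with no filter on low counts (adjusted p = 0.0556) and with the share of Lars2 counts as a covariate (adjusted p = 0.0622). Got2, the mitochondrial form, was at 554, 647, 519, 525 and 638 CPM in Plin2-null fasted livers, against 458, 512, 409, 396 and 431 CPM in Plin2-null fed livers. It was at 493, 507, 589.8, 555 and 578 CPM in Plin2+/+ fasted livers, against 472, 513, 481, 489 and 536 CPM in Plin2+/+ fed livers. Its ranges did not overlap in Plin2-null livers, where it rose by 0.39 ± 0.10 (adjusted p = 0.00388), and overlapped in Plin2+/+ livers, where the log2 fold change was 0.13 ± 0.10 (adjusted p = 0.309). The Got2 call in Plin2-null livers was lost with library size alone (0.18, adjusted p = 0.312) and on log2(TPM + 1) (0.09, adjusted p = 0.671), and with the GC trend removed Got2 was also called higher in Plin2+/+ livers (0.22, adjusted p = 0.0404).

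Of the serine pair, Sdsl, serine dehydratase-like, rose in both genotypes, at low levels. It was at 8.37, 5.92, 11.8, 9.58 and 10.2 CPM in Plin2-null fasted livers, against 3.62, 2.45, 2.91, 2.80 and 2.17 CPM in Plin2-null fed livers. In Plin2+/+ mice it was at 9.54, 6.95, 16.4, 7.80 and 14.6 CPM in fasted livers, against 2.36, 2.79, 3.15, 6.37 and 2.85 CPM in fed livers, where replicate 4 stood apart from the other fed libraries. Fasted and fed ranges did not overlap, with log2 fold changes of 1.71 ± 0.27 (adjusted p = 5.19e-05) in Plin2-null and 1.66 ± 0.27 (adjusted p = 4.70e-05) in Plin2+/+ livers. Sds, the serine dehydratase that yields pyruvate, was at 68.1, 30.6, 77.3, 39.0 and 106 CPM in Plin2-null fasted livers, against 41.7, 39.6, 49.3, 36.5 and 26.7 CPM in Plin2-null fed livers. It was at 49.97, 61.3, 102, 46.6 and 65.8 CPM in Plin2+/+ fasted livers, against 34.0, 41.2, 105, 151 and 38.0 CPM in Plin2+/+ fed livers. The ranges overlapped, and neither log2 fold change passed the test (0.73 ± 0.41 in Plin2-null, adjusted p = 0.181, and -0.18 ± 0.41 in Plin2+/+ livers, adjusted p = 0.752). Sds shares 360 exon bases with Plbd2 on the other strand, and no source used here gives the strand setting of the counting, which leaves its counts uncertain.

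In the glycine and glyoxylate group, of 5 genes, 1 rose and 3 fell in each genotype. Of all genes, 18.0% rose and 18.1% fell in Plin2-null and 20.9% rose and 21.7% fell in Plin2+/+ livers. Gldc, the decarboxylase of the glycine cleavage system, rose by 0.60 ± 0.10 in Plin2-null (adjusted p = 6.61e-05) and 0.54 ± 0.10 in Plin2+/+ livers (adjusted p = 0.000177). Its aminomethyltransferase partner Amt had -0.46 ± 0.12 in Plin2-null (adjusted p = 0.00396) and -0.52 ± 0.12 in Plin2+/+ livers (adjusted p = 0.00116). Gldc was at 314 ± 31.2 CPM in Plin2-null fasted, 207 ± 14.1 CPM in Plin2-null fed, 299 ± 18.9 CPM in Plin2+/+ fasted and 206 ± 27.3 CPM in Plin2+/+ fed livers (SD, n = 5). Amt was at 59.0 ± 8.93 CPM in Plin2-null fasted, 81.2 ± 10.8 CPM in Plin2-null fed, 53.7 ± 5.96 CPM in Plin2+/+ fasted and 77.1 ± 9.58 CPM in Plin2+/+ fed livers (SD, n = 5). The Gldc call in Plin2-null livers was lost on log2(TPM + 0.1) (0.30, adjusted p = 0.0523). Gldc and Amt, parts of one enzyme system, were called in opposite directions in both genotypes under every other setting run. Shmt1, the cytosolic serine hydroxymethyltransferase, had log2 fold changes of -0.41 ± 0.11 in Plin2-null and -0.53 ± 0.11 in Plin2+/+ livers (adjusted p = 0.00474 and 0.000406), and 184 of its exon bases are shared with Smcr8 on the other strand.

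Agxt2, a mitochondrial alanine-glyoxylate aminotransferase, fell in both genotypes. It was at 69.6, 86.4, 68.1, 53.3 and 66.0 CPM in Plin2-null fasted livers, against 86.6, 110.1, 82.2, 94.2 and 94.6 CPM in Plin2-null fed livers. In Plin2+/+ mice Agxt2 was at 62.1, 76.9, 91.7, 62.0 and 49.1 CPM in fasted livers, against 105, 75.2, 100.1, 127 and 103 CPM in fed livers. The ranges overlapped in Plin2+/+ livers through fed replicate 2, and in Plin2-null livers through fasted replicate 2 and fed replicate 3. The log2 fold changes were -0.45 ± 0.15 in Plin2-null (adjusted p = 0.028) and -0.58 ± 0.15 in Plin2+/+ livers (adjusted p = 0.00467). The Agxt2 call in Plin2-null livers ended without fed replicate 2, fasted replicate 4 or fasted replicate 5 (adjusted p = 0.0756, 0.078 and 0.0552). Agxt, the enzyme that clears glyoxylate in hepatocyte peroxisomes, was at 326, 287, 213, 257 and 189 CPM in Plin2-null fasted livers, against 236, 291, 271, 228 and 209 CPM in Plin2-null fed livers. It was at 150.1, 138, 221, 168 and 199 CPM in Plin2+/+ fasted livers, against 141, 189, 254, 256 and 239 CPM in Plin2+/+ fed livers. The ranges overlapped and the log2 fold changes did not pass the test (0.04 ± 0.17 in Plin2-null and -0.30 ± 0.17 in Plin2+/+ livers; adjusted p = 0.862 and 0.165), though without Plin2+/+ fed replicate 1 Agxt was called lower in Plin2+/+ fasted livers (-0.42, adjusted p = 0.0423).

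The first 3 enzymes of histidine breakdown fell in both genotypes, as did 13.2% of all genes tested. Uroc1, urocanate hydratase, was at 285, 282, 333, 265 and 289.6 CPM in Plin2-null fasted livers, against 452, 469, 465, 383 and 406 CPM in Plin2-null fed livers. The Plin2+/+ values were 215, 237, 255, 262 and 249 CPM in fasted livers, against 424, 393, 494, 613 and 381 CPM in fed livers. Every fasted library lay below every fed library of its genotype, and the log2 fold changes were -0.58 ± 0.12 in Plin2-null (adjusted p = 0.000578) and -0.92 ± 0.12 in Plin2+/+ livers (adjusted p = 2.36e-06). Hal, the ammonia-lyase that starts the pathway, had log2 fold changes of -0.70 ± 0.17 in Plin2-null and -0.55 ± 0.17 in Plin2+/+ livers (adjusted p = 0.00221 and 0.00989). Amdhd1, imidazolonepropionase, had -0.38 ± 0.15 in Plin2-null and -0.46 ± 0.15 in Plin2+/+ livers (adjusted p = 0.0448 and 0.0142). The Amdhd1 call in Plin2-null livers ended without any 1 of fed replicates 1, 2 and 3 and fasted replicates 1, 2, 4 and 5 (adjusted p between 0.0546 and 0.125). Ftcd, which hands the histidine-derived carbon to folate, had log2 fold changes of 0.14 ± 0.17 in Plin2-null and 0.05 ± 0.17 in Plin2+/+ livers and was not called (adjusted p = 0.533 and 0.826).

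Along the kynurenine pathway of tryptophan Tdo2 and Kmo rose and Haao, a later enzyme, fell in both genotypes. Tdo2, tryptophan dioxygenase, opens the indole ring and is the entry step in liver. It was at 1951, 2176, 2833, 1815 and 2247 CPM in Plin2-null fasted livers, against 881, 797, 859, 1049 and 762 CPM in Plin2-null fed livers. In Plin2+/+ mice Tdo2 was at 2897, 4478, 4813, 2849.8 and 2581 CPM in fasted livers, against 1113, 770.2, 1089, 1368 and 977 CPM in fed livers. Fasted and fed ranges did not overlap, and Tdo2 rose by 1.34 ± 0.18 in Plin2-null (adjusted p = 5.30e-06) and 1.73 ± 0.18 in Plin2+/+ livers (adjusted p = 1.50e-07). Haao, the hydroxyanthranilate dioxygenase that makes the precursor of quinolinate, was at 171, 155, 174, 157 and 173 CPM in Plin2-null fasted livers, against 386, 452, 360.1, 271 and 315 CPM in Plin2-null fed livers. In Plin2+/+ mice it was at 87.6, 132, 135, 156 and 148 CPM in fasted livers, against 288, 310.3, 371, 363 and 413 CPM in fed livers. Haao was lower in every fasted than in every fed library, with log2 fold changes of -1.10 ± 0.15 in Plin2-null (adjusted p = 4.38e-06) and -1.41 ± 0.15 in Plin2+/+ livers (adjusted p = 1.35e-07).

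Between them stand Kmo, kynurenine monooxygenase, and Kynu, kynureninase. Kmo was at 334, 368, 332, 337 and 269 CPM in Plin2-null fasted livers, against 249.7, 227, 212, 295 and 231 CPM in Plin2-null fed livers. It was at 420.5, 502, 522, 345 and 363 CPM in Plin2+/+ fasted livers, against 276, 236, 243, 235 and 232 CPM in Plin2+/+ fed livers. Kmo rose by 0.43 ± 0.12 in Plin2-null livers, where the ranges overlapped (adjusted p = 0.00846), and by 0.82 ± 0.12 in Plin2+/+ livers, where they did not (adjusted p = 1.66e-05). The Kmo call in Plin2-null livers was lost with library size alone (0.22, adjusted p = 0.197) and on log2(TPM + 1) (0.14, adjusted p = 0.478). Kynu was at 187, 209.6, 234, 164 and 160.3 CPM in Plin2-null fasted livers, against 174, 138, 203, 250.2 and 162 CPM in Plin2-null fed livers. It was at 264, 342, 275, 253 and 201 CPM in Plin2+/+ fasted livers, against 185, 139.6, 186, 235 and 142 CPM in Plin2+/+ fed livers. The ranges of Kynu overlapped in both genotypes, and it was called higher in Plin2+/+ livers (0.59 ± 0.17, adjusted p = 0.00771), beside 0.04 ± 0.17 in Plin2-null livers (adjusted p = 0.863).

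**Figure D3:**
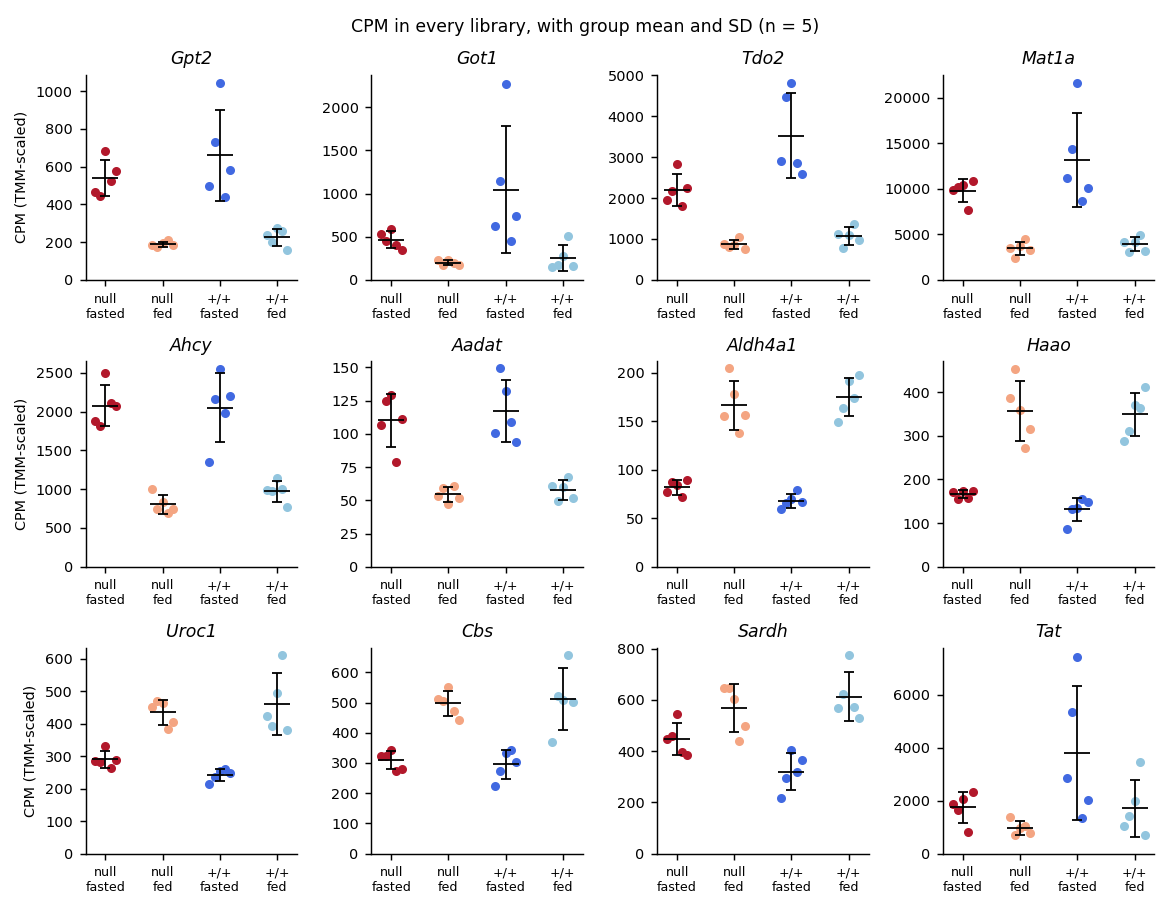
TMM-scaled CPM of 12 genes in every library of the 4 groups, with the group mean and SD (n = 5). Gpt2, Tdo2, Mat1a, Ahcy and Aadat are higher and Aldh4a1, Haao, Uroc1 and Cbs lower in each fasted library than in each fed library of the same genotype, and Got1 and Tat spread most in Plin2+/+ fasted livers.

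Of the 4 enzymes of tyrosine breakdown 3 rose in Plin2+/+ livers, where 20.9% of all genes did. None passed the test in Plin2-null livers, where 18.0% of all genes were called higher and 18.1% lower. The difference between these responses was called for none of the 4. It was -0.31 ± 0.63 for Tat, -0.23 ± 0.21 for Hpd and -0.37 ± 0.20 for Hgd (interaction adjusted p = 0.846, 0.626 and 0.41). A fit of the Plin2-null groups alone did call Tat (0.84, adjusted p = 0.0249) and Hpd (0.32, adjusted p = 0.0177) higher in Plin2-null fasted livers. Tat, tyrosine aminotransferase, which sets the rate of the pathway, was at 1875, 1669, 2076, 817 and 2332 CPM in Plin2-null fasted livers, against 1385, 722, 973, 1039 and 771 CPM in Plin2-null fed livers. The Plin2+/+ values were 2845, 5348, 7427, 1367 and 2045 CPM in fasted livers, against 1040.4, 1411, 1973, 3451 and 695 CPM in fed livers. The ranges overlapped in both genotypes. The log2 fold change of Tat was 0.84 ± 0.45 (adjusted p = 0.153) in Plin2-null and 1.15 ± 0.45 (adjusted p = 0.0477) in Plin2+/+ livers. The Tat call in Plin2+/+ livers ended without any 1 of fed replicates 1, 2, 3 and 5 and fasted replicates 1, 2 and 3 (adjusted p between 0.051 and 0.184). It also ended with library size alone, with no filter on low counts, on log2(TPM + 1) and log2(TPM + 0.1), in a fit of the Plin2+/+ groups alone and with the share of Lars2 counts as a covariate (adjusted p up to 0.118). Hpd, hydroxyphenylpyruvate dioxygenase, had log2 fold changes of 0.33 ± 0.15 in Plin2-null (adjusted p = 0.0903) and 0.56 ± 0.15 in Plin2+/+ livers (adjusted p = 0.00475). The Hpd call in Plin2+/+ livers was lost on log2(TPM + 1) (0.37, adjusted p = 0.0908). Hgd, homogentisate dioxygenase, had 0.22 ± 0.14 in Plin2-null (adjusted p = 0.238) and 0.59 ± 0.14 in Plin2+/+ livers (adjusted p = 0.00217). Fah, which makes the final cut to fumarate and acetoacetate, had -0.08 ± 0.12 in Plin2-null and -0.13 ± 0.12 in Plin2+/+ livers (adjusted p = 0.635 and 0.397). With library size alone Fah was called lower in both (-0.30 each, adjusted p = 0.0418 in Plin2-null and 0.0441 in Plin2+/+ livers), and on log2(TPM + 1) in Plin2-null livers (-0.37, adjusted p = 0.0275).

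Both lysine enzymes rose in both genotypes, as did 12.6% of all genes tested. Aadat, the aminoadipate aminotransferase, was at 107, 125, 129.5, 78.9 and 111 CPM in Plin2-null fasted livers, against 53.2, 59.3, 46.9, 61.0 and 51.9 CPM in Plin2-null fed livers. In Plin2+/+ mice Aadat was at 101, 149, 132, 109 and 93.9 CPM in fasted livers, against 61.1, 49.3, 60.2, 67.9 and 51.4 CPM in fed livers. Fasted libraries lay above fed libraries throughout, with log2 fold changes of 1.02 ± 0.14 in Plin2-null (adjusted p = 7.12e-06) and 1.01 ± 0.14 in Plin2+/+ livers (adjusted p = 5.45e-06). Aass, the bifunctional enzyme that starts lysine breakdown in mitochondria, rose by 1.38 ± 0.24 in Plin2-null (adjusted p = 0.000111) and 1.56 ± 0.24 in Plin2+/+ livers (adjusted p = 2.23e-05).

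Of the enzymes that lead from ornithine and proline to glutamate, Oat, ornithine aminotransferase, rose by 1.09 ± 0.17 in Plin2-null (adjusted p = 3.30e-05) and 1.17 ± 0.17 in Plin2+/+ livers (adjusted p = 1.06e-05). Aldh4a1, the dehydrogenase that oxidises the shared intermediate to glutamate, fell. Aldh4a1 was at 76.7, 87.6, 84.0, 71.9 and 89.1 CPM in Plin2-null fasted livers, against 155, 205, 178, 138 and 156 CPM in Plin2-null fed livers. In Plin2+/+ mice it was at 60.0, 65.5, 69.6, 79.7 and 66.7 CPM in fasted livers, against 149.7, 164, 191, 174 and 198 CPM in fed livers. Each fasted library lay below each fed library, and the log2 fold changes were -1.02 ± 0.11 in Plin2-null (adjusted p = 3.52e-07) and -1.36 ± 0.11 in Plin2+/+ livers (adjusted p = 6.18e-09), the smallest adjusted p among the 47 genes in both comparisons. The enzymes on either side of that intermediate therefore changed in opposite directions. Aldh4a1 shares 1595 of its 4907 exon bases with Gm21969 on the same strand, whose counts came to 0.187% of its own, which leaves its counts uncertain. Prodh2, the hydroxyproline dehydrogenase, was at 61.3, 72.9, 85.3, 105 and 70.6 CPM in Plin2-null fasted livers, against 113, 95.6, 94.7, 63.8 and 84.9 CPM in Plin2-null fed livers. It was at 35.2, 42.3, 55.7, 72.7 and 84.2 CPM in Plin2+/+ fasted livers, against 79.4, 106, 98.8, 73.8 and 91.2 CPM in Plin2+/+ fed livers. The ranges overlapped, and Prodh2 was called lower in Plin2+/+ livers (-0.63 ± 0.20, adjusted p = 0.0156), beside -0.19 ± 0.20 in Plin2-null livers (adjusted p = 0.481). Prodh, the proline dehydrogenase, was at 74.3, 61.7, 108, 74.5 and 84.0 CPM in Plin2-null fasted livers, against 66.6, 95.6, 85.6, 87.0 and 90.3 CPM in Plin2-null fed livers. It was at 56.2, 82.8, 78.6, 70.6 and 70.2 CPM in Plin2+/+ fasted livers, against 61.1, 73.4, 91.7, 57.8 and 78.4 CPM in Plin2+/+ fed livers, and its log2 fold changes were -0.08 ± 0.15 in Plin2-null and -0.02 ± 0.15 in Plin2+/+ livers (adjusted p = 0.713 and 0.941). On log2(TPM + 1) Prodh was called lower in Plin2-null livers (-0.38, adjusted p = 0.0336).

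In the methionine cycle the genes for the synthesis of S-adenosylmethionine and for the hydrolysis of its product rose in both genotypes. Mat1a was at 9884, 10174, 10426, 7709.7 and 10849.9 CPM in Plin2-null fasted livers, against 3561, 2455, 3675, 4447 and 3276 CPM in Plin2-null fed livers. The Plin2+/+ values were 11192, 14356, 21602, 8660.3 and 10059 CPM in fasted livers, against 4208, 3035, 4181, 4907 and 3194 CPM in fed livers. Fasted libraries were all above fed libraries, with Plin2+/+ fasted replicate 3 the highest. The log2 fold change of Mat1a was 1.49 ± 0.21 (adjusted p = 9.24e-06) in Plin2-null and 1.75 ± 0.21 (adjusted p = 9.60e-07) in Plin2+/+ livers. Ahcy, which splits S-adenosylhomocysteine, was at 1881, 1820.1, 2490.2, 2112 and 2069 CPM in Plin2-null fasted livers, against 1004, 744, 833, 695 and 749 CPM in Plin2-null fed livers. It was at 1349, 2166, 2552, 1984 and 2206 CPM in Plin2+/+ fasted livers, against 992, 971, 1146, 1003 and 768 CPM in Plin2+/+ fed livers. Ranges did not overlap, and Ahcy rose by 1.37 ± 0.15 in Plin2-null (adjusted p = 4.19e-07) and 1.07 ± 0.15 in Plin2+/+ livers (adjusted p = 6.90e-06).

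The enzymes that use or remake methyl groups gave other values. Sardh, sarcosine dehydrogenase, was at 448, 459, 544, 399 and 387 CPM in Plin2-null fasted livers, against 646, 648, 603, 439 and 499 CPM in Plin2-null fed livers. In Plin2+/+ mice Sardh was at 219, 294, 406, 319 and 365 CPM in fasted livers, against 567, 624, 774, 571 and 531 CPM in fed livers. The ranges overlapped in Plin2-null livers and not in Plin2+/+ livers, where Sardh fell (-0.94 ± 0.15, adjusted p = 4.70e-05). In Plin2-null livers its log2 fold change was -0.34 ± 0.15 (adjusted p = 0.0865), and it was called lower without fed replicate 4 (-0.42, adjusted p = 0.0424) and without fasted replicate 3 (-0.44, adjusted p = 0.0478). It was also called lower there with library size alone, on both log2 TPM scales, with the share of Lars2 counts as a covariate and with the GC trend removed (-0.63 to -0.44, adjusted p between 0.00177 and 0.0349). Gnmt, the glycine methyltransferase that makes sarcosine, had log2 fold changes of 0.00 ± 0.21 in Plin2-null (adjusted p = 0.998) and -0.64 ± 0.21 in Plin2+/+ livers (adjusted p = 0.0192). The Gnmt call in Plin2+/+ livers ended without fed replicate 3 or fed replicate 4 (adjusted p = 0.0582 and 0.0591). Bhmt, which remethylates homocysteine from betaine, rose by 1.14 ± 0.30 in Plin2-null livers (adjusted p = 0.00599) and had 0.42 ± 0.30 in Plin2+/+ livers (adjusted p = 0.277). It averaged 6368 ± 1686 CPM in Plin2-null fasted, 2899 ± 1267 CPM in Plin2-null fed, 3379.7 ± 1181 CPM in Plin2+/+ fasted and 2533 ± 715 CPM in Plin2+/+ fed livers (SD, n = 5). Dmgdh, dimethylglycine dehydrogenase, had log2 fold changes of 0.04 ± 0.14 in Plin2-null and -0.07 ± 0.14 in Plin2+/+ livers (adjusted p = 0.829 and 0.696).

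Transsulfuration takes homocysteine to cysteine, and its first enzyme fell in both genotypes. Cbs, cystathionine beta-synthase, was at 324, 323, 342, 274 and 281 CPM in Plin2-null fasted livers, against 512, 507, 550.2, 472 and 443 CPM in Plin2-null fed livers. In Plin2+/+ mice Cbs was at 225, 274, 333, 344 and 305 CPM in fasted livers, against 369.7, 521, 509, 658 and 503 CPM in fed livers. The fasted libraries were below the fed libraries, with log2 fold changes of -0.69 ± 0.13 in Plin2-null (adjusted p = 0.000369) and -0.79 ± 0.13 in Plin2+/+ livers (adjusted p = 6.27e-05). Cth, cystathionine gamma-lyase, had -0.72 ± 0.25 in Plin2-null (adjusted p = 0.0272) and -0.46 ± 0.25 in Plin2+/+ livers (adjusted p = 0.136). The Cth call in Plin2-null livers ended without any 1 of fed replicates 3 and 4 and fasted replicates 4 and 5 (adjusted p between 0.055 and 0.0783). Cdo1, which oxidises cysteine, had 0.02 ± 0.15 in Plin2-null and 0.33 ± 0.15 in Plin2+/+ livers (adjusted p = 0.917 and 0.0836), and without Plin2+/+ fasted replicate 5 it was called higher in Plin2+/+ fasted livers (0.42, adjusted p = 0.029).

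All 9 branched-chain genes were called in Plin2-null livers, 3 higher and 6 lower, where 36.1% of all genes were called, and 5 in Plin2+/+ livers, 1 higher and 4 lower, where 42.6% were. In Plin2-null livers the calls of Bckdha, Bckdhb, Bcat2 and Mccc1 each ended with 1 library left out, as given for each gene. Acadsb, a short and branched-chain acyl-CoA dehydrogenase of the isoleucine route, was at 92.5, 94.0, 87.9, 77.8 and 73.5 CPM in Plin2-null fasted livers, against 124, 109, 127, 128 and 131 CPM in Plin2-null fed livers. In Plin2+/+ mice it was at 96.6, 117, 103, 94.4 and 82.9 CPM in fasted livers, against 134, 116, 131, 129.9 and 113 CPM in fed livers. The ranges were apart in Plin2-null livers and overlapped in Plin2+/+ livers through fasted replicate 2 and fed replicates 2 and 5. Its log2 fold changes were -0.54 ± 0.10 in Plin2-null (adjusted p = 0.000212) and -0.34 ± 0.10 in Plin2+/+ livers (adjusted p = 0.00907). Ivd, isovaleryl-CoA dehydrogenase of leucine breakdown, had -0.51 ± 0.10 in Plin2-null and -0.50 ± 0.10 in Plin2+/+ livers (adjusted p = 0.000455 and 0.000413). Hibadh, the hydroxyisobutyrate dehydrogenase of valine breakdown, had -0.60 ± 0.12 in Plin2-null and -0.48 ± 0.12 in Plin2+/+ livers (adjusted p = 0.00054 and 0.00328).

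The subunits of the branched-chain keto acid dehydrogenase, which commits these amino acids to oxidation, did not move as one. Bckdha rose by 0.80 ± 0.29 in Plin2-null livers (adjusted p = 0.0356) and had 0.10 ± 0.29 in Plin2+/+ livers (adjusted p = 0.8). Bckdhb had 0.32 ± 0.12 in Plin2-null and 0.35 ± 0.12 in Plin2+/+ livers (adjusted p = 0.0432 and 0.0233). Dbt, the core subunit, had -0.42 ± 0.13 in Plin2-null (adjusted p = 0.0127) and -0.14 ± 0.13 in Plin2+/+ livers (adjusted p = 0.405). Dbt was thus lower and Bckdha and Bckdhb higher in Plin2-null fasted livers. Bckdha shares 1171 of its 1899 exon bases with B3gnt8 on the other strand, whose counts came to 0.24% of its own, which leaves its counts uncertain. The Bckdha call ended without any 1 of Plin2-null fed replicates 4 and 5 and fasted replicates 3 and 4 (adjusted p between 0.0671 and 0.106). The Bckdhb calls ended without any 1 of Plin2-null fed replicates 1 and 3 and fasted replicates 2, 3 and 5 (adjusted p between 0.0802 and 0.118), and of Plin2+/+ fed replicate 2 and fasted replicates 2 and 3 (adjusted p between 0.0602 and 0.0994). With library size alone Bckdhb had 0.09 in Plin2-null (adjusted p = 0.582) and 0.18 in Plin2+/+ livers (adjusted p = 0.271), and Bckdha had 0.58 in Plin2-null livers (adjusted p = 0.128).

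The subunits of methylcrotonyl-CoA carboxylase of leucine breakdown also parted in Plin2-null livers. Mccc1 had -0.32 ± 0.10 in Plin2-null (adjusted p = 0.016) and -0.12 ± 0.10 in Plin2+/+ livers (adjusted p = 0.363), and Mccc2 had 0.48 ± 0.11 in Plin2-null (adjusted p = 0.00237) and 0.12 ± 0.11 in Plin2+/+ livers (adjusted p = 0.428). The Mccc1 call ended without Plin2-null fasted replicate 5 (adjusted p = 0.0529), and the Mccc2 call with library size alone (0.25, adjusted p = 0.108) and on log2(TPM + 1) (0.17, adjusted p = 0.282). Bcat2, the mitochondrial branched-chain aminotransferase, which is low in liver, had -0.41 ± 0.14 in Plin2-null and -0.55 ± 0.14 in Plin2+/+ livers (adjusted p = 0.031 and 0.00366). The Bcat2 call in Plin2-null livers ended without any 1 of fed replicate 4 and fasted replicates 1, 2 and 3 (adjusted p between 0.0626 and 0.0855). Bcat2 shares 622 exon bases with the antisense gene 0610005C13Rik, whose counts came to 537% of its own, so its value is uncertain.

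Paired enzymes that carry out the same or a related step were compared by their TPM ratio within each library, which library scaling cannot move. The 5 pairs in 4 comparisons gave 20 two-sided exact permutation tests over libraries, adjusted over the 20, and 5 libraries against 5 cannot go below an exact p of 0.00794. Gpt2 over Gpt was 1.94, 1.68, 1.74, 1.67 and 1.71 in Plin2-null fasted livers, against 0.726, 0.524, 0.758, 1.21 and 0.744 in Plin2-null fed livers. It was 3.23, 3.41, 3.65, 1.84 and 2.13 in Plin2+/+ fasted livers, against 0.911, 0.757, 0.721, 1.04 and 0.647 in Plin2+/+ fed livers. The mitochondrial form exceeded the cytosolic one in every fasted library, no fasted ratio overlapped the fed ratios of its genotype, and the fasted ratio was higher by 1.19 in Plin2-null and 1.78 in Plin2+/+ livers on the log2 scale (exact permutation adjusted p = 0.0397 each). Between fasted groups, the ratio averaged 0.80 ± 0.09 in Plin2-null and 1.46 ± 0.44 in Plin2+/+ livers on the log2 scale (SD, n = 5), a difference of -0.66 (exact permutation adjusted p = 0.0454), and only Plin2+/+ fasted replicate 4 lay within the range of the Plin2-null fasted libraries. Gpt has a GC content of 59.0% and Gpt2 of 51.1%, and the ratios were not adjusted for GC content. The part of GC content in this difference was not tested.

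Got1 over Got2 was 1.84, 1.32, 2.18, 1.46 and 1.04 in Plin2-null fasted livers, against 0.964, 0.646, 1.08, 0.929 and 0.755 in Plin2-null fed livers. It was 2.40, 4.31, 7.31, 1.55 and 2.42 in Plin2+/+ fasted livers, against 0.588, 0.628, 1.09, 1.97 and 0.559 in Plin2+/+ fed livers. The ranges overlapped slightly in both, and the log2 ratio was higher in fasted livers by 0.82 in Plin2-null and 1.86 in Plin2+/+ mice (exact permutation adjusted p = 0.0454 each). Between fasted groups it differed by -1.03 (exact permutation adjusted p = 0.0794). Sdsl over Sds was higher in fasted livers by 1.07 in Plin2-null and 1.62 in Plin2+/+ mice (exact permutation adjusted p = 0.0397 each), and Sdsl stayed below Sds in all 20 libraries. Prodh2 over Prodh differed by -0.10 in Plin2-null and -0.68 in Plin2+/+ mice (exact permutation adjusted p = 0.785 and 0.0595), and Agxt2 over Agxt by -0.48 in Plin2-null and -0.30 in Plin2+/+ mice (exact permutation adjusted p = 0.0705 and 0.407). No ratio passed the test between genotypes in fed livers (exact permutation adjusted p between 0.185 and 0.968, and the smallest unadjusted exact p was 0.111). With 1 library left out, 4 against 5 cannot go below an exact p of 0.0159, and most adjusted p of the called ratios then lay between 0.0529 and 0.0794.

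**Figure D4:**
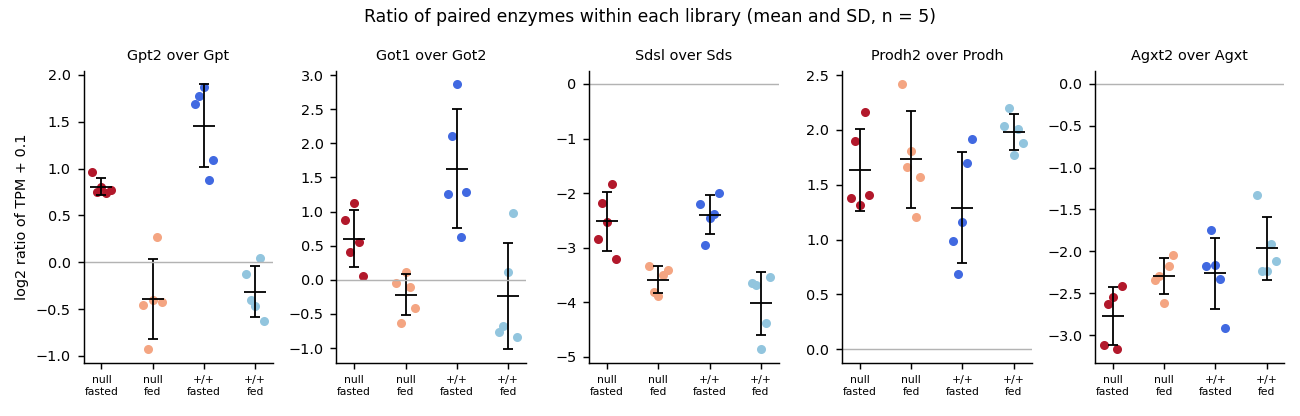
Log2 ratio of TPM + 0.1 for the 5 enzyme pairs in every library of the 4 groups, with mean and SD (n = 5). Gpt2 over Gpt averages 0.80 in Plin2-null fasted, -0.39 in Plin2-null fed, 1.46 in Plin2+/+ fasted and -0.32 in Plin2+/+ fed livers.

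Between genotypes in fasted livers, Tdo2 was the one gene of the 47 to pass the test, and it was lower in Plin2-null livers. That is 2.13% of the genes, beside 3.24% of all genes tested. Tdo2 (ENSMUSG00000028011) was at 2204 ± 392 CPM in Plin2-null fasted and 3524 ± 1038 CPM in Plin2+/+ fasted livers (SD, n = 5), a log2 fold change of -0.68 ± 0.18 (edgeR adjusted p = 0.0438). Of the library values given above, 1 Plin2-null fasted library (replicate 3) lay within the Plin2+/+ fasted range, and the other 4 lay below it. The call ended without any 1 of Plin2-null fasted replicates 1, 2, 4 and 5 and Plin2+/+ fasted replicates 1, 2 and 3 (log2 fold change between -0.54 and -0.74, adjusted p between 0.0626 and 0.135). It also ended in a fit of the 2 fasted groups alone (adjusted p = 0.0878), on log2(TPM + 1) (adjusted p = 0.0848) and with each library's trend with GC content removed (-0.49, adjusted p = 0.0956).

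With unadjusted p under 0.05, 11 genes were higher and 7 lower in Plin2-null fasted livers, 38.3% of the 47. Of all genes 24.3% were, 12.9% higher and 11.3% lower. The higher ones were Gpt, Agxt, Uroc1, Haao, Prodh2, Aldh4a1, Gnmt, Bhmt, Sardh, Bckdha and Mccc2, and the lower ones Got1, Tdo2, Kmo, Kynu, Tat, Hgd and Acadsb. Bhmt had a log2 fold change of 0.91 ± 0.30 (adjusted p = 0.0836), Agxt 0.54 ± 0.17 (0.0732) and Sardh 0.48 ± 0.15 (0.0745). Among the lower ones, Got1 had -1.16 ± 0.39 (adjusted p = 0.0894), Tat -1.12 ± 0.45 (0.145), Kmo -0.39 ± 0.12 (0.0694) and Kynu -0.48 ± 0.17 (0.0971). The kynurenine enzymes Tdo2, Kmo and Kynu thus had negative values and Haao a positive one, 0.34 ± 0.15 (adjusted p = 0.164). Uroc1 was higher in each of the 5 Plin2-null fasted libraries than in any Plin2+/+ fasted library, by 0.26 ± 0.12 (adjusted p = 0.189). Without Plin2+/+ fasted replicate 4, Got1 and Kmo were called lower (-1.35 and -0.46, adjusted p = 0.0421 and 0.034). Without Plin2+/+ fasted replicate 5, Agxt, Prodh2, Sardh and Bckdha were called higher (0.59, 0.62, 0.53 and 0.91, adjusted p = 0.0445, 0.0476, 0.043 and 0.0471) and Kmo and Kynu lower (-0.45 and -0.57, adjusted p = 0.0303 and 0.0385). Calls over all genes also rose in number without these libraries, to 5.78% of genes without Plin2+/+ fasted replicate 4 and to 10.8% (1033 higher and 761 lower) without replicate 5, against 3.24% (246 higher and 282 lower) with all libraries. Without Plin2+/+ fasted replicates 1, 2 and 3 they fell to 0.542%, 0.0789% and 0.504%. Leaving out Plin2-null fasted replicates 1, 2, 3 and 5 lowered them to 1.26%, 2.63%, 0.936% and 0.0912%, and leaving out replicate 4 gave 3.48%.

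GC content moved with this comparison. Across the 47 genes, which are not independent replicates, the GC content of the longest transcript and the log2 fold change of Plin2-null over Plin2+/+ fasted livers had a Pearson r of 0.42. It was 0.07 once each library's trend with GC content was removed, a step that takes out such a correlation by its construction. Genes with an unadjusted p under 0.05 were then 5 higher and 8 lower, 27.7% of the 47, against 11 higher and 7 lower before. The share of all genes at that unadjusted threshold was not counted in this setting. After adjustment none of the 47 was called there, beside 2.19% of all genes (1.18% higher and 1.01% lower). Tdo2 has a GC content of 39.6%, Kynu 40.7% and Kmo 43.7%, while Gpt has 59.0%, Bckdha 57.9% and Agxt 56.2%. Bhmt (43.1%), Got1 (52.3%) and Tat (49.6%) stood apart from that trend. The part of GC content in the genotype values was not tested.

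**Figure D5:**
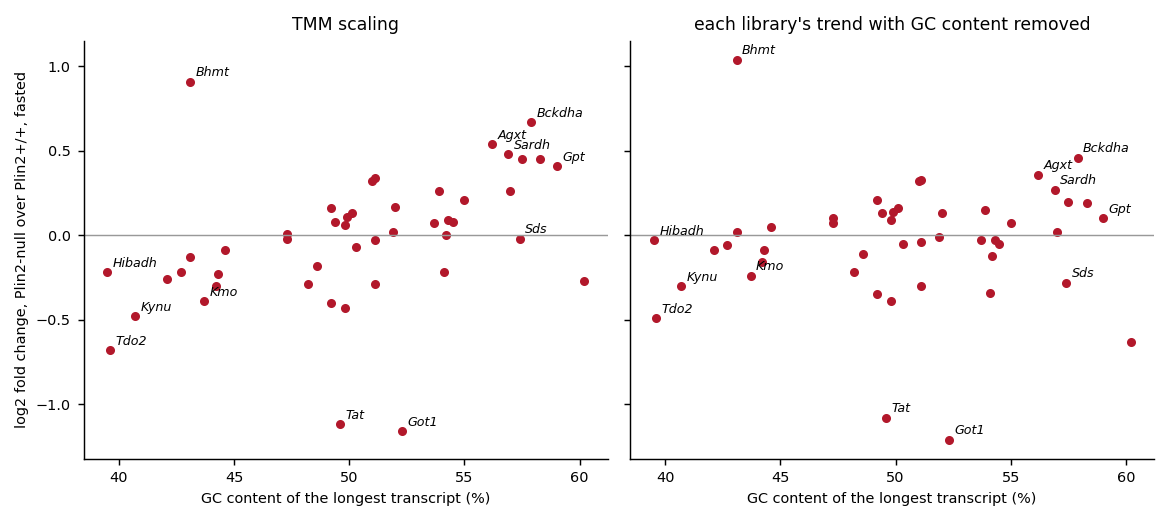
Log2 fold change of Plin2-null over Plin2+/+ fasted livers against the GC content of each gene's longest transcript, with TMM scaling (left) and with each library's GC trend removed (right). Pearson r over the 47 genes is 0.42 on the left and 0.07 on the right, and Bhmt, Tat and Got1 lie far from 0 in both.

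In fed livers edgeR called none of the 47 genes between genotypes, beside 0.0184% of all genes (0.0123% higher and 0.00613% lower). DESeq2 and limma voom called 0 of the 47 either. The one gene with an unadjusted p under 0.05 was Sds, 2.13% of the 47 beside 4.25% of all genes, of which 2.08% were lower. The log2 fold change of Sds was -0.93 ± 0.41 (unadjusted p = 0.0371), with Plin2+/+ fed replicates 3 and 4 above all Plin2-null fed libraries and the other 3 within their range. Next in unadjusted p came Ahcy (-0.28 ± 0.15) and Tat (-0.81 ± 0.45). Of the other 44 genes, none had a log2 fold change outside -0.32 to 0.23.

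The response to fasting itself was compared between genotypes by an interaction term, fasted over fed in Plin2-null minus the same in Plin2+/+ livers. edgeR called none of the 47 genes, and 0% of all genes, and neither did DESeq2 or limma voom call any of the 47. Unadjusted, 5 genes had a p under 0.05 with positive values (Gpt, Aldh4a1, Gnmt, Sardh and Mccc2) and 2 with negative ones (Kmo and Kynu), 14.9% of the 47. The background was 13.8% of all genes, 7.01% positive and 6.79% negative. Sardh had the smallest p, with a difference in log2 fold change of 0.59 ± 0.22 (unadjusted p = 0.0121, adjusted p = 0.271), followed by Kynu (-0.55 ± 0.24) and Gpt (0.56 ± 0.25). Among the other genes called in 1 genotype alone the differences were 0.72 ± 0.42 for Bhmt, 0.70 ± 0.40 for Bckdha, 0.64 ± 0.30 for Gnmt, 0.36 ± 0.16 for Mccc2 and -0.37 ± 0.20 for Hgd (adjusted p = 0.439, 0.435, 0.354, 0.337 and 0.41). Prodh2 had 0.44 ± 0.29, Got2 0.26 ± 0.14, Mccc1 -0.20 ± 0.14 and Hpd -0.23 ± 0.21 (adjusted p = 0.477, 0.403, 0.508 and 0.626). Cth had -0.26 ± 0.35, Dbt -0.28 ± 0.18 and Tat -0.31 ± 0.63 (adjusted p = 0.751, 0.467 and 0.846). The interaction values had a Pearson r of 0.59 with GC content across the 47 genes, and of 0.19 with the GC trend removed, again by construction, where 2.13% of them had an unadjusted p under 0.05. The share of all genes at that threshold was not counted in this setting, and 0% of all genes were called after adjustment.

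Further enzymes of these pathways, a list of 45 of which 43 were tested, fell more often than they rose in fasted livers. In Plin2-null livers 5 rose and 17 fell, and in Plin2+/+ livers 7 rose and 16 fell, with median log2 fold changes of -0.12 in Plin2-null and -0.23 in Plin2+/+ livers. Of all genes tested, 18.0% rose and 18.1% fell in Plin2-null and 20.9% rose and 21.7% fell in Plin2+/+ livers. Gcat, which cleaves a breakdown product of threonine to glycine, had -1.59 ± 0.22 in Plin2-null and -1.81 ± 0.22 in Plin2+/+ livers (adjusted p = 6.56e-06 and 9.87e-07). Its levels were low, at means of 0.738 CPM in Plin2-null fasted, 2.26 in Plin2-null fed, 0.725 in Plin2+/+ fasted and 2.53 CPM in Plin2+/+ fed livers. Hao1, the glycolate oxidase upstream of Agxt, had -1.32 ± 0.20 in Plin2-null and -1.20 ± 0.20 in Plin2+/+ livers (adjusted p = 3.00e-05 and 6.29e-05). Afmid and Qprt, which flank Kmo, Kynu and Haao in the kynurenine pathway, had -0.79 ± 0.16 and -0.56 ± 0.15 in Plin2-null and -0.99 ± 0.16 and -0.98 ± 0.15 in Plin2+/+ livers, all called lower. Glud1, glutamate dehydrogenase, had -0.78 ± 0.14 in Plin2-null and -0.69 ± 0.14 in Plin2+/+ livers (adjusted p = 0.000128 and 0.000376). Between genotypes in fasted livers 1 of the 43 was called, Mpst, a sulfurtransferase of cysteine breakdown (0.90 ± 0.24, adjusted p = 0.0495), beside 3.24% of all genes.

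Of 20 amino acid transporters 7 rose and 6 fell in Plin2-null fasted livers, beside 18.0% and 18.1% of all genes. In Plin2+/+ fasted livers 10 rose and 8 fell, beside 20.9% and 21.7% of all genes. Slc25a22, a mitochondrial glutamate carrier, had 1.66 ± 0.20 in Plin2-null and 2.12 ± 0.21 in Plin2+/+ livers (adjusted p = 1.96e-06 and 6.25e-08), and Slc1a4, a carrier of alanine, serine and cysteine, had -2.54 ± 0.30 in Plin2-null and -3.96 ± 0.33 in Plin2+/+ livers (adjusted p = 1.38e-06 and 1.03e-08). Slc1a4 was low, at means of 1.87 CPM in Plin2-null fasted, 10.9 in Plin2-null fed, 0.733 in Plin2+/+ fasted and 11.3 CPM in Plin2+/+ fed livers. Between genotypes in fasted livers 3 transporters were called higher (Slc1a4, Slc6a6 and Slc7a8) and 3 lower in Plin2-null livers, where 1.51% of all genes were called higher and 1.73% lower. The lower ones were Slc16a10, which carries aromatic amino acids (-0.92 ± 0.19, adjusted p = 0.0191), Slc1a2 (-0.59 ± 0.15, adjusted p = 0.0414) and Slc25a15, the ornithine carrier (-0.64 ± 0.17, adjusted p = 0.0453). Of 12 regulators of amino acid catabolism 6 rose and 2 fell in Plin2-null and 6 rose and 3 fell in Plin2+/+ fasted livers, beside the same all-gene shares as for the transporters. Ppargc1a, a coactivator of fasting genes, was the regulator called between genotypes in fasted livers, with -1.52 ± 0.38 (adjusted p = 0.0415). The genotype calls of the further enzymes, transporters and regulators were not followed with libraries left out or the GC trend removed. Without Plin2+/+ fasted replicate 2, 0.0789% of all genes were called between fasted genotypes, against 3.24% with all libraries. Nr3c1, the glucocorticoid receptor, fell in fasted livers of both genotypes (-0.60 ± 0.09 in Plin2-null and -0.41 ± 0.09 in Plin2+/+ livers; adjusted p = 2.83e-05 and 0.00128).

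Markers of hepatocyte zones and of other liver cells moved in the same fasting comparisons. Of all genes tested, 18.0% rose and 18.1% fell there in Plin2-null livers, and 20.9% rose and 21.7% fell in Plin2+/+ livers. Of 6 periportal markers 1 rose and 3 fell in Plin2-null and 1 rose and 4 fell in Plin2+/+ fasted livers. Their sums ran from 3875 to 5884 CPM in Plin2-null fasted, 2559 to 4134 in Plin2-null fed, 5068 to 8753 in Plin2+/+ fasted and 3107 to 7372 CPM in Plin2+/+ fed livers. Of 9 pericentral markers 1 rose and 2 fell in Plin2-null and 2 rose and 3 fell in Plin2+/+ fasted livers. Their sums ran from 9552 to 11503 CPM in Plin2-null fasted, 6791 to 7537 in Plin2-null fed, 8976 to 14370.3 in Plin2+/+ fasted and 3526 to 8830 CPM in Plin2+/+ fed livers, with no overlap between fasted and fed libraries of a genotype. A sum of CPM weighs the most abundant markers most, and does not show that a list rose. The median log2 fold change of the pericentral markers was -0.05 in Plin2-null and 0 in Plin2+/+ livers. For the periportal markers it was -0.53 in Plin2-null and -0.51 in Plin2+/+ livers. Of 10 Kupffer cell and macrophage markers 5 fell in Plin2-null and 7 in Plin2+/+ fasted livers, with sums of 349.8 to 445 CPM in Plin2-null fasted, 355 to 845 in Plin2-null fed, 236 to 420.0 in Plin2+/+ fasted and 438 to 596 CPM in Plin2+/+ fed livers. None of the markers in these 3 lists was at 0 in all libraries of a group. Of 8 stellate cell markers 4 fell in Plin2-null and 5 in Plin2+/+ fasted livers, of 8 endothelial markers 2 rose and 2 fell in Plin2-null and 2 rose and 3 fell in Plin2+/+ fasted livers, and of 8 lymphocyte markers 1 fell in Plin2-null and 5 in Plin2+/+ fasted livers. The 6 cholangiocyte markers summed to 17.0 to 25.8 CPM in Plin2-null fasted, 30.0 to 48.3 in Plin2-null fed, 12.2 to 23.3 in Plin2+/+ fasted and 33.2 to 51.3 CPM in Plin2+/+ fed livers. Of 6 hepatocyte markers tested 1 rose and 1 fell in Plin2-null and 3 rose and 1 fell in Plin2+/+ fasted livers. Between genotypes in fasted livers, the markers called were Cps1 of the hepatocyte list (-0.97 ± 0.23), Cyp1a2 (0.93 ± 0.23) and Slc1a2 of the pericentral list, Des of the stellate list (0.67 ± 0.17), Ms4a1 of the lymphocyte list (1.44 ± 0.38) and the neutrophil genes S100a8 (1.29 ± 0.32) and S100a9 (1.42 ± 0.23). Of all genes 3.24% were called in this comparison, and the marker calls were not followed in other settings. The neutrophil markers summed to 3.97 to 7.43 CPM in Plin2-null fasted and 1.83 to 2.74 CPM in Plin2+/+ fasted livers. The part of these markers in the values of the 47 genes was not tested.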

How the data were processed

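Liver RNA-seq of 20 libraries in 4 groups of 5 was analysed. The authors deposited raw counts per gene and TPM per gene. Per the submitters' processing notes the tools were HISAT2 1.2.1 and featureCounts 1.4.6-p1, with GRCh38 listed as the build although the gene IDs are of mouse; no source used here gives the annotation or the strand setting. RNA was isolated with a NucleoSpin kit and made into strand-specific TruSeq libraries, per the labels' protocols. Total counts ran from 25506471 to 65579038 per library, which sets the precision of each gene's count. Within groups no 2 libraries agreed within sampling noise (chi-square per degree of freedom at least 45.29 over 40 pairs).

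Counts were fitted with edgeR 4.0.16 (R 4.3.3; filterByExpr, TMM scaling, robust quasi-likelihood test) over all 20 libraries, and p-values were adjusted by Benjamini-Hochberg over 16312 genes with a threshold of 0.05. SEs were derived from the F statistic. TPM was used for levels between genes and for enzyme ratios (pseudocount 0.1, exact permutation tests). Alternatives were DESeq2 1.42.0, limma voom 3.58.1, other scalings and filters (no filter, or 50 counts in 5 libraries), limma on log2 TPM, the share of Lars2 counts as a covariate, a GC trend removed with splines of 5 degrees of freedom, and each library left out. The methods were tested on simulated data. Of simulated 1.5-fold changes, 2.99% were recovered for the interaction and 22.4% for genotype in fed livers. Of 2-fold changes, 46.3% were recovered for the interaction and 71.6% for genotype in fed livers. A gene not called in these comparisons may therefore still differ. The 47 genes and all gene lists were chosen with earlier results of these data known. Values in every library are given for up to 4 genes higher and 4 lower with the smallest adjusted p in each comparison, up to 3 with the smallest unadjusted p in the genotype comparisons and the interaction, and each enzyme pair. One gene of the further pathway list is not reported here.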

Additional observations from a re-analysis of the deposited data

Results flagged for a closer look

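Of 208 sets of 5 libraries examined, 7 (3.37%) held 1 library set apart from the other 4 by Dixon's test, where chance gives about 5%. Gpt was at 197 CPM in Plin2+/+ fed replicate 3, against 128 to 139.7 CPM in the other 4 libraries. Sdsl was at 6.37 CPM in Plin2+/+ fed replicate 4, against 2.36 to 3.15 CPM in the others. Hal was at 343 CPM in Plin2-null fasted replicate 3, against 208 to 236 CPM in the others. Kmo was at 276 CPM in Plin2+/+ fed replicate 1, against 232 to 243 CPM in the others. Hgd was at 689 CPM in Plin2-null fed replicate 4, against 464 to 509 CPM in the others. Dbt was lowest in Plin2-null fasted replicate 4, at 65.4 CPM, against 81.7 to 84.0 CPM in the others. The TPM ratio of Gpt2 over Gpt was 1.94 in Plin2-null fasted replicate 1, against 1.67 to 1.74 in the others.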

How the results depend on the processing

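No direction of a called result reversed under any alternative that was run. In Plin2-null fasted livers the number of genes called higher was 10 on log2(TPM + 0.1), against 16 with TMM scaling, with 19 lower, where 6.36% of all genes were called higher and 28.7% lower. With 1 library left out it ran from 13 to 16 higher and 12 to 16 lower, and in Plin2+/+ livers from 14 to 17 higher and 15 to 17 lower. Between genotypes in fasted livers DESeq2 called 3 of the 47 higher and 2 lower (8.78% of all genes, against 3.24% by edgeR), and none was called lower (0) on log2(TPM + 1), on log2(TPM + 0.1), in a fit of the compared groups alone or with the GC trend removed. With 1 library left out, 0 to 4 genes were called higher, the 4 without Plin2+/+ fasted replicate 5 (10.8% of all genes called), and 0 to 3 lower. Calls over all genes fell as low as 0.0789%, without Plin2+/+ fasted replicate 2. Without 1 library, the log2 ratio of Gpt2 over Gpt ran from 1.06 to 1.36 for fasting in Plin2-null, 1.68 to 1.92 for fasting in Plin2+/+ and -0.80 to -0.55 between fasted genotypes. Got1 over Got2 ran from 0.69 to 0.96, 1.55 to 2.17 and -1.27 to -0.72 in these comparisons. Sdsl over Sds ran from 0.90 to 1.24 for fasting in Plin2-null and 1.41 to 1.76 in Plin2+/+. Prodh2 over Prodh ran from -0.84 to -0.53 for fasting in Plin2+/+, and Agxt2 over Agxt from -0.57 to -0.38 for fasting in Plin2-null and -0.67 to -0.38 between fasted genotypes. Between fasted genotypes without Plin2+/+ fasted replicate 4, Got1 over Got2 had an exact permutation adjusted p of 0.0397. The cause of these changes was not tested, except that 4 libraries against 5 cannot go below an exact p of 0.0159. No paired analysis was possible because the replicate numbers come from accession order and pair no libraries. Counts shared between overlapping genes, 5 libraries a group and unstated counting strand limit the values.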
